A study of Homo sapiens with 15 samples.

Results

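The genes described here were 41 listed genes of DNA replication and of entry into S phase, among 55773 genes in a table of normalized RNA-seq read counts. They were taken by name, and each of the 41 had a row. Human HEK293-derived cells, an established embryonic kidney line, were profiled in 5 groups of 3 libraries. For overexpression, a transgene for Flag/HA-ZC3H7A, for Flag/HA-ZC3H7B or for a Flag/HA control was carried by Flp-In T-REx 293 cells, and all 3 groups are labelled as treated with doxycycline, which induces such a transgene (1 µg/mL for 24 h). In the depletion experiment, HEK293 cells labelled DD combined a knockout of ZC3H7A with an shRNA to ZC3H7B, and HEK293 cells labelled Parental were wild type with a control shRNA (shCTR). Both of these lines had been under puromycin at 5 µg/mL until 2 passages before collection. The overexpression libraries are described as independent replicates. The sources used here do not say whether the libraries of DD and of Parental came from separate cultures, or whether a line was a single clone. Their p-values then measure only the spread between these libraries, which may be technical.

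ZC3H7A and ZC3H7B are CCCH zinc finger proteins that bind RNA, and the series is about how they act on mRNA according to its codons. Replication starts at origins, where ORC, CDC6 and CDT1 load the ring-shaped MCM2-7 helicase in G1. At the start of S phase CDC45 and the GINS complex join the ring to make the active helicase, DNA polymerase alpha with its primase lays down primers, and the clamp PCNA, loaded by the RFC complex, holds the synthesizing polymerases on DNA. Many of these genes are transcribed in a wave late in G1 under E2F factors, which are held back by RB until cyclin E and its kinase are active.

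The overexpression libraries held 45.5 to 57.6 M reads and the depletion libraries 12.2 to 15.5 M reads, so the depletion values carry more counting error. Among the targeted genes, ZC3H7A had 10545, 10131 and 12898 normalized counts in ZC3H7A libraries, against 3179.5, 3374 and 3223 in control libraries. ZC3H7B had 28082, 26712 and 26632 in ZC3H7B libraries, against 5951, 5818 and 6044 in control libraries. The other gene of the pair moved as well: ZC3H7B rose by 0.42 in ZC3H7A libraries (limma adjusted p = 5.19e-06), and ZC3H7A fell by 0.68 in ZC3H7B libraries (limma adjusted p = 6.91e-06). In DD libraries ZC3H7B had 999.8, 1168 and 1083, against 5948, 6484 and 6958 in Parental libraries. The knocked-out ZC3H7A had 1639.9, 1561 and 1771 in DD libraries and 1585, 1528 and 1684 in Parental libraries, and a count over the whole gene does not check a knockout that leaves the transcript in place. Of 9 markers of the HEK293 and renal or neuronal lineage, 9 in the overexpression groups and 8 in DD and in Parental had a mean of at least 10, with VIM the highest. The 6 leukocyte markers together summed to between 25.9 and 103 per library, those of endothelium to between 6.54 and 29.5, and those of fibroblasts to between 155 and 308.

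The share of the library taken by the 41 genes together was higher in every ZC3H7A, ZC3H7B and DD library than in any library of its control or Parental group, and lower in every ZC3H7A library than in any ZC3H7B library. It was 0.721%, 0.709% and 0.696% in ZC3H7A libraries, 0.829%, 0.829% and 0.808% in ZC3H7B libraries, and 0.649%, 0.659% and 0.656% in control libraries. In DD libraries it was 0.726%, 0.736% and 0.699%, against 0.461%, 0.494% and 0.611% in Parental libraries. The 3 Parental libraries were thus spread more widely than those of any other group. The mitochondrial share of the reads differed too: it was 2.24% to 2.38% in DD libraries, against 3.08%, 2.92% and 2.11% in Parental replicates 1, 2 and 3, and 4.59% to 4.68% in ZC3H7A and ZC3H7B libraries, against 4.97% to 5.31% in control libraries. Its part in the results was not tested. In bulk RNA, a change in the number of cells in S phase and a change in the RNA of these genes per cell cannot be told apart.

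**Figure D1:**
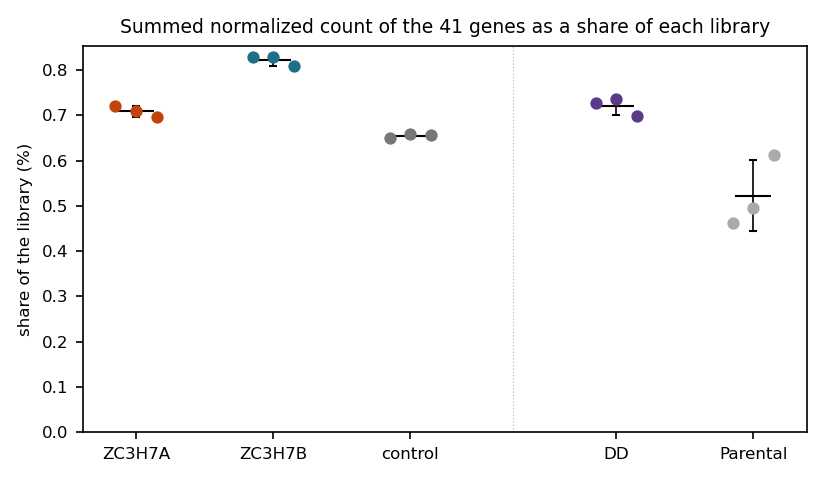
Summed normalized count of the 41 genes as a percentage of each library's total (y axis), with 1 point per library and the mean ± SD of 3 libraries for each group. ZC3H7A libraries lie between 0.696% and 0.721% and ZC3H7B libraries between 0.808% and 0.829%, above control libraries (0.649% to 0.659%), and DD libraries lie above Parental libraries, which reach 0.611%.

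Differences between groups were tested gene by gene with limma on log2 of the normalized count plus 1, over 17673 genes in the overexpression experiment and 18494 in the depletion experiment, and a gene was called at a Benjamini-Hochberg adjusted p under 0.05. All 41 members passed the filter on low values in both. Fold changes below are on this log2 scale. With ZC3H7A, 21 members rose and 10 fell against control, where 34.7% of all tested genes rose and 41.2% fell, and the members' median log2 fold change was 0.15 against -0.07 for all genes. With ZC3H7B, 32 members rose and 3 fell, where 32.0% of all genes rose and 37.6% fell, with a median of 0.46 against -0.06. In DD, 27 members rose against Parental and 1 fell, where 14.7% of all genes rose and 14.8% fell, with a median of 0.43 against 0.01. The ZC3H7A and ZC3H7B comparisons share their control libraries. For no gene named here was it tested whether its neighbours on the chromosome moved with it.

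**Figure D2:**
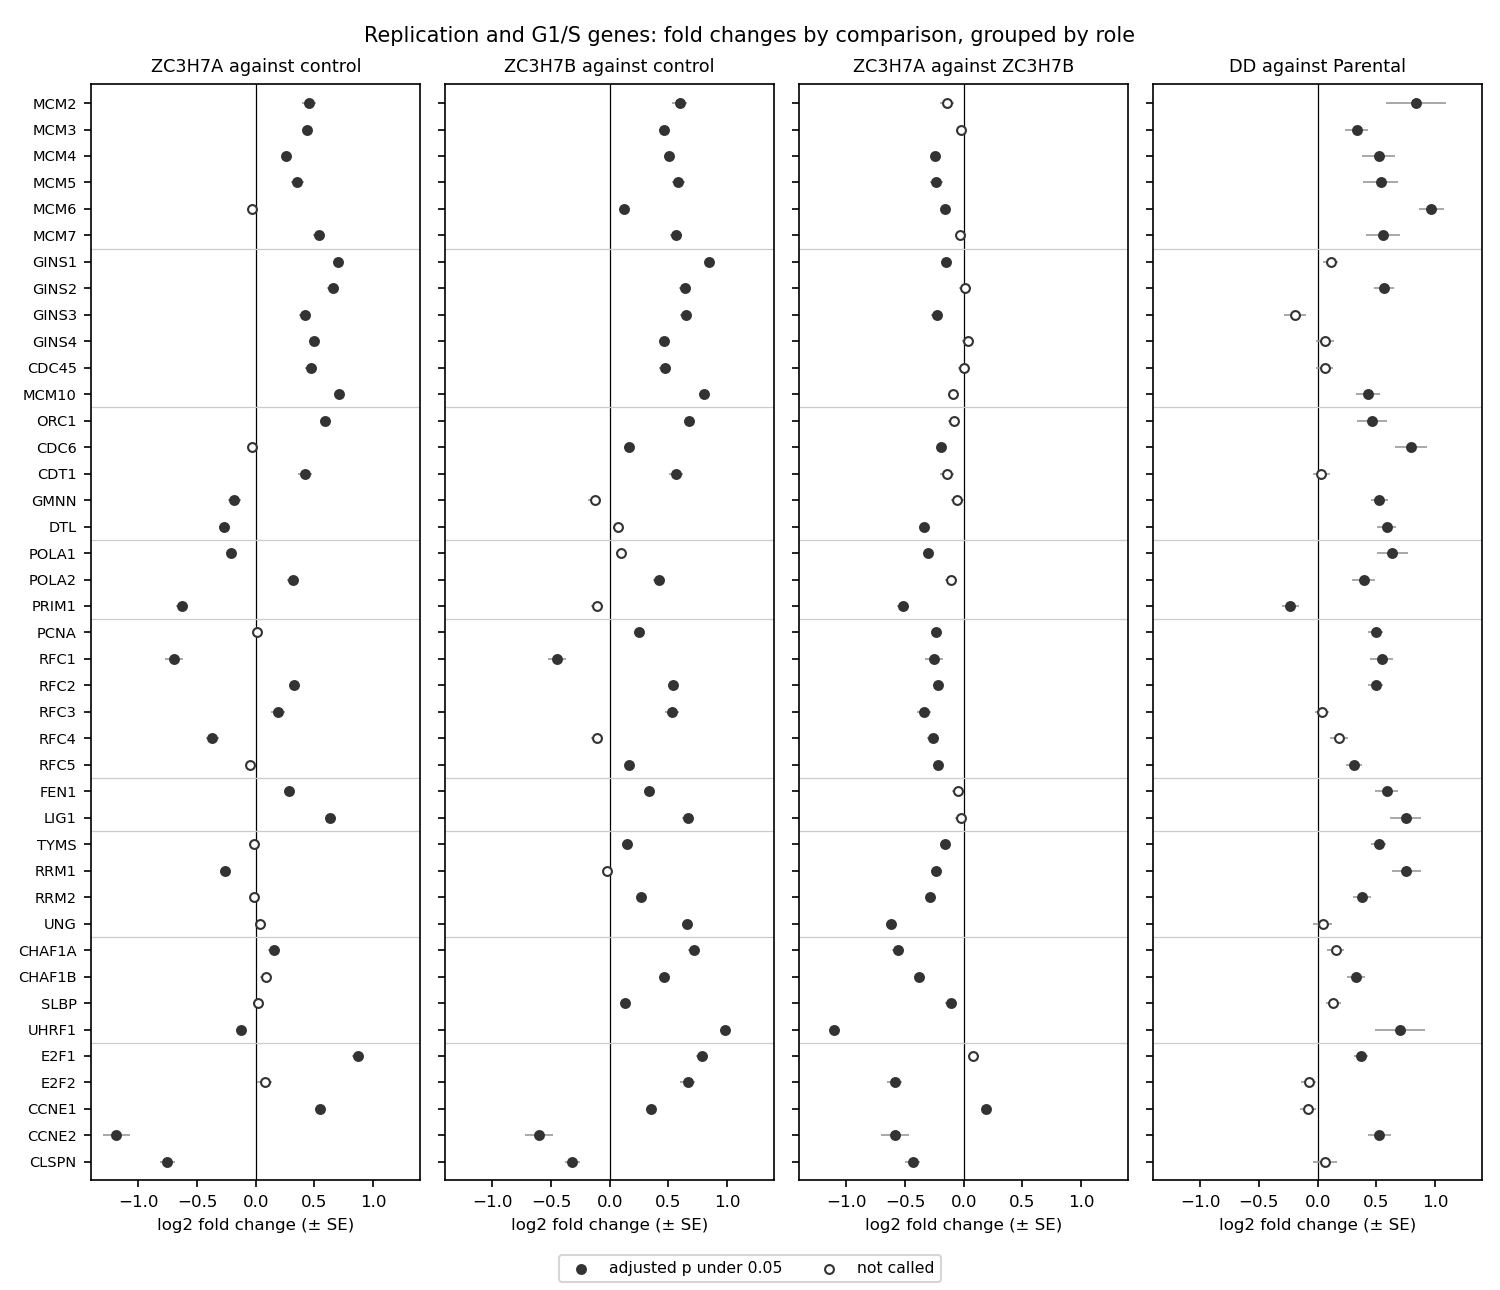
Log2 fold change of each of the 41 genes (points, with the standard error of the limma fit as bars), in rows grouped by role, for ZC3H7A against control, ZC3H7B against control, ZC3H7A against ZC3H7B and DD against Parental. Filled points passed an adjusted p of 0.05. Values for ZC3H7A run between -1.19 (CCNE2) and 0.87 (E2F1), and those for DD between -0.23 (PRIM1) and 0.97 (MCM6).

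The MCM2-7 subunits, which form the helicase ring, rose in nearly every comparison: 5 of 6 rose with ZC3H7A, 6 of 6 with ZC3H7B and 6 of 6 in DD, and none fell. Of all tested genes, 34.7%, 32.0% and 14.7% rose, in the same order. MCM7 had 34749, 32672 and 30196 normalized counts in ZC3H7A libraries and 34276, 33675 and 31473 in ZC3H7B libraries, against 22101, 22492 and 22696 in control libraries. Its libraries did not overlap, and it rose by 0.53 ± 0.05 with ZC3H7A (SE; limma adjusted p = 1.28e-06) and by 0.56 ± 0.05 with ZC3H7B (limma adjusted p = 1.26e-06). MCM2 had 10785, 10029.9 and 8903 in ZC3H7A libraries and 11268, 11006 and 10377 in ZC3H7B libraries, against 7117, 7308 and 7182 in control libraries. Every ZC3H7A and ZC3H7B library thus stood above every control library, with log2 fold changes of 0.46 and 0.59. MCM3, MCM4 and MCM5 rose by 0.44, 0.26 and 0.35 with ZC3H7A and by 0.46, 0.50 and 0.59 with ZC3H7B.

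MCM6, another subunit of the ring, had 5905, 5568 and 5718 in ZC3H7A libraries and 6453, 6453 and 6246 in ZC3H7B libraries, against 5833, 5893 and 5888 in control libraries. The ZC3H7A libraries overlapped those of the control (-0.04, limma adjusted p = 0.39), and the rise with ZC3H7B was 0.12 ± 0.04 (limma adjusted p = 0.011). In DD, by contrast, MCM6 had the largest rise of the 41 genes: 7991, 7749.6 and 7497 in DD libraries, against 3588, 3523 and 4899.5 in Parental libraries (0.97 ± 0.11, limma adjusted p = 5.28e-05). Per kb of transcript, the mean levels of the ring subunits ran MCM7, MCM4, MCM3, MCM2, MCM5 and MCM6 in ZC3H7A and in ZC3H7B cells, although the ring holds each subunit once. MCM7 averaged 11004 normalized counts per kb in ZC3H7A cells, 11208 in ZC3H7B cells and 7585 in control cells, and MCM6 averaged 1534, 1709 and 1572. In control cells the order was the same down to MCM2, and MCM5 averaged 1533, just under MCM6. In DD cells MCM6 averaged 2073 per kb and MCM5 1763, and in Parental cells MCM6 averaged 1072 and MCM5 1246.

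**Figure D3:**
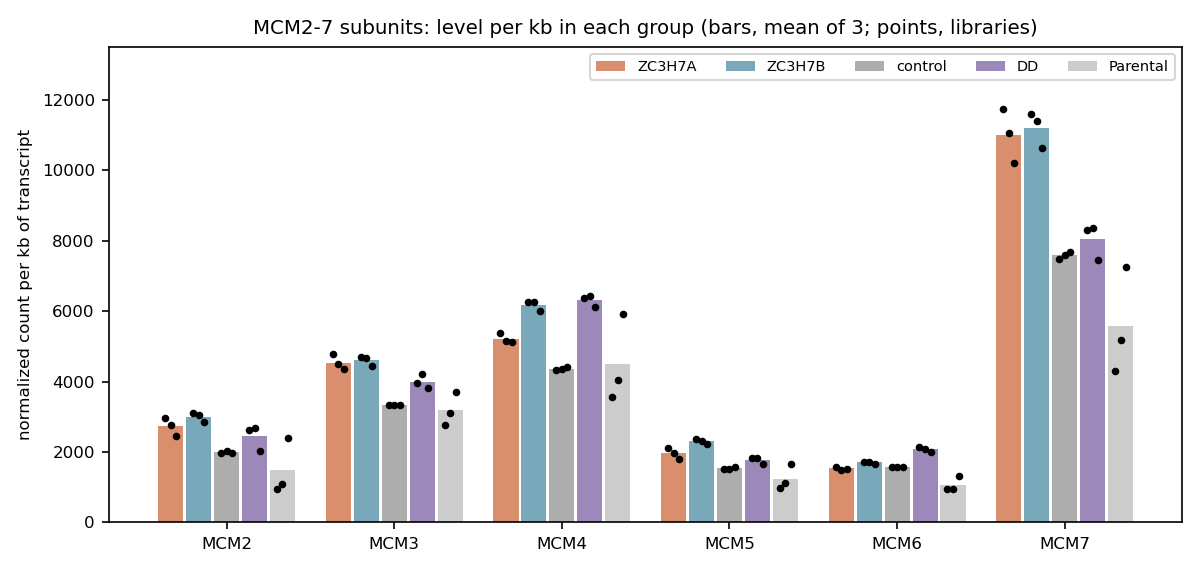
Normalized count per kb of transcript of the 6 MCM2-7 subunits in ZC3H7A, ZC3H7B, control, DD and Parental cells (bars, mean of 3 libraries; points, libraries). MCM7 is the highest subunit in every group, with means of 11004, 11208, 7585, 8035 and 5582 in that order, and MCM6 averages 2073 in DD cells against 1072 in Parental cells.

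In DD the other ring subunits rose by 0.84 (MCM2), 0.33 (MCM3), 0.52 (MCM4), 0.54 (MCM5) and 0.56 (MCM7), but their Parental libraries were widely spread. MCM2 had 9459, 9683 and 7389 in DD libraries, against 3464, 3949 and 8688 in Parental libraries. Parental replicate 3 lay above DD replicate 3, so the groups overlapped (0.84 ± 0.26, limma adjusted p = 0.029). Parental replicate 3 was the highest Parental library for 29 of the 41 members, and without it MCM2 rose by 1.25 and 29 members rose in all. The DD rise of MCM2 did not pass the threshold with edgeR (adjusted p = 0.064) or DESeq2 (adjusted p = 0.28), or without DD replicate 1 (0.78), DD replicate 2 (0.77), Parental replicate 1 (0.58) or Parental replicate 2 (0.68), and those of MCM4, MCM5 and MCM7 were also lost with DESeq2. The MCM3 call was lost without any of the same 4 libraries (0.23 to 0.34), those of MCM4 and MCM5 without DD replicate 1 or 2 or Parental replicate 2 (0.46 to 0.52), and that of MCM7 without DD replicate 1 (0.53) or Parental replicate 2 (0.52). MCM6 kept its call in all 6 fits that left out 1 library, between 0.88 and 1.12.

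The factors that turn the ring into an active helicase rose together in the overexpression experiment: GINS1, GINS2, GINS3 and GINS4, CDC45, and MCM10, which helps start unwinding, all rose with ZC3H7A (median log2 fold change 0.58) and all rose with ZC3H7B (0.65). Of all tested genes, 34.7% and 32.0% rose. GINS1 had 4193, 4050.2 and 4172 in ZC3H7A libraries and 4677, 4578 and 4528 in ZC3H7B libraries, against 2493, 2633 and 2522 in control libraries. The groups were far apart relative to their spread, with a rise of 0.70 ± 0.04 with ZC3H7A (SE; limma adjusted p = 1.64e-08) and of 0.85 ± 0.04 with ZC3H7B (limma adjusted p = 9.02e-09). MCM10 had 3285, 3159 and 3422 in ZC3H7A libraries and 3482, 3509 and 3538 in ZC3H7B libraries, against 1983, 2051 and 1990.3 in control libraries. Its log2 fold changes were 0.71 and 0.81, again without overlap. GINS2 had 2180.2, 2099 and 1994 in ZC3H7A libraries and 2114, 2149.7 and 1953 in ZC3H7B libraries, against 1304, 1369 and 1300.0 in control libraries (0.66 and 0.64).

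In DD only 2 of these 6 genes passed the test, both higher, where 14.7% of all genes rose. GINS2 had 1793, 1753 and 1708 in DD libraries, against 1310.0, 1141 and 1109 in Parental libraries, without overlap (0.56 ± 0.08, limma adjusted p = 0.00035). MCM10 had 3499, 3665 and 3313 in DD libraries, against 2325, 2381 and 3137 in Parental libraries (0.43, limma adjusted p = 0.0087), a call lost without Parental replicate 2 (0.37). GINS1 had 4971, 4786 and 5283 in DD libraries and 4603, 4736 and 4562 in Parental libraries, a difference of 0.11 ± 0.06 (limma adjusted p = 0.21). GINS3, GINS4 and CDC45 had DD values of -0.19, 0.06 and 0.06 that did not pass.

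Among the licensing genes, ORC1, the subunit of the origin recognition complex made late in G1, had 1625, 1584 and 1509 in ZC3H7A libraries and 1679.5, 1677 and 1651 in ZC3H7B libraries, against 1069, 1061 and 1001 in control libraries. It rose without overlap in each (0.59 ± 0.05 and 0.68 ± 0.05; limma adjusted p = 2.59e-07 and 1.4e-07), and it rose in DD, where it had 1619, 1599 and 1502 against 915, 1166 and 1389.9 in Parental libraries (0.46, limma adjusted p = 0.015; lost without DD replicate 1, at 0.44, or DD replicate 2, at 0.45). CDT1, the loader that geminin blocks, rose by 0.42 with ZC3H7A and by 0.57 with ZC3H7B, and its DD value of 0.03 did not pass. CDC6, the ATPase that works with ORC, had a ZC3H7A value of -0.04 that did not pass, rose by 0.16 with ZC3H7B, and rose by 0.80 ± 0.14 in DD (4846, 4762 and 4147, against 2185, 2409 and 3464 in Parental libraries; limma adjusted p = 0.0012).

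The 2 genes of this role that restrain CDT1 moved the other way with ZC3H7A. GMNN, which encodes geminin, had 2760.0, 2989 and 3049 in ZC3H7A libraries and 2844, 3146 and 3164 in ZC3H7B libraries, against 3196, 3462 and 3329 in control libraries. It fell with ZC3H7A by 0.18 (limma adjusted p = 0.0094), a call lost under other scalings and with DESeq2, and the ZC3H7B value of -0.13 did not pass. DTL, the adaptor that marks CDT1 for destruction, had 3262, 3260.5 and 3165 in ZC3H7A libraries and 4006, 4245 and 4019 in ZC3H7B libraries, against 3931, 3901 and 3866 in control libraries. Its ZC3H7A libraries lay below all others, and it fell with ZC3H7A by 0.27 ± 0.04 (limma adjusted p = 3.77e-05). In DD both rose without overlap: GMNN had 3511, 3298 and 3362 against 2362, 2495 and 2209 in Parental libraries (0.53 ± 0.07), and DTL had 4757, 4849.7 and 4817 against 2971, 3067 and 3597 (0.59 ± 0.08).

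The 3 genes of the priming complex moved apart. POLA2, the B subunit of polymerase alpha, rose by 0.31 with ZC3H7A, 0.42 with ZC3H7B and 0.39 in DD, the DD call being lost without DD replicate 1 (0.37). POLA1, its catalytic subunit, had 3098, 3020.1 and 3240.4 in ZC3H7A libraries and 3699, 3896 and 3942 in ZC3H7B libraries, against 3597, 3616 and 3603 in control libraries. It fell by 0.21 ± 0.04 with ZC3H7A (limma adjusted p = 0.00058), a call lost under upper-quartile scaling, and the ZC3H7B value of 0.09 did not pass. In DD libraries POLA1 had 4564, 4390.1 and 3886, against 2391, 2426 and 3577 in Parental libraries (0.64 ± 0.13, limma adjusted p = 0.0037). PRIM1, the primase catalytic subunit, had 818, 860.4 and 885 in ZC3H7A libraries and 1208, 1281 and 1178 in ZC3H7B libraries, against 1322, 1289.6 and 1346 in control libraries. It fell by 0.63 ± 0.05 with ZC3H7A (limma adjusted p = 3.14e-07).

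PRIM1 was also the single member called lower in DD, with 1047, 1142 and 1165 in DD libraries and 1306, 1307 and 1322 in Parental libraries (-0.23 ± 0.08, limma adjusted p = 0.038). That call was lost without any 1 library other than Parental replicate 3 (-0.26 to -0.19) and with DESeq2 (adjusted p = 0.079). Exons of PRIM1 overlap those of NACA and HSD17B6 in the annotation used here, and whether reads were counted by strand is not given. Reads in the shared stretches therefore cannot be told apart, and the length of these stretches was not measured. The same holds for 12 other members whose exons overlap a coding gene, among them CCNE2 with INTS8, MCM7 with AP4M1, CHAF1A with UBXN6 and RFC4 with EIF4A2, and 5 more members overlap only a non-coding gene.

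Of the clamp and its loader, 2 of 6 genes rose and 2 fell with ZC3H7A. These shares, 33.3% each, are near the 34.7% and 41.2% of all genes, so nothing is read from that count. With ZC3H7B 4 rose and 1 fell, beside 32.0% and 37.6% of all genes. In DD 4 rose and 0 fell, beside 14.7% and 14.8%. RFC1, the large loader subunit, had 2037, 1962 and 2458 in ZC3H7A libraries and 2339, 2644 and 2671 in ZC3H7B libraries, against 3473, 3413 and 3542 in control libraries. It fell by 0.70 ± 0.08 with ZC3H7A (limma adjusted p = 4.91e-06) and by 0.45 ± 0.08 with ZC3H7B (limma adjusted p = 0.00024), with every control library above the rest. In DD it rose by 0.54 ± 0.10, with 1932, 1867 and 1835 against 1352, 1082 and 1455 in Parental libraries (limma adjusted p = 0.0018). The small subunits RFC2 and RFC3 rose by 0.32 and 0.19 with ZC3H7A and by 0.54 and 0.53 with ZC3H7B, whereas RFC4 fell by 0.37 with ZC3H7A. PCNA averaged 10305 ± 386 in ZC3H7A libraries, 12135 ± 222 in ZC3H7B libraries and 10213 ± 362 in control libraries (SD, n = 3 each). Only its ZC3H7B rise of 0.25 passed the test there, and in DD it rose by 0.49, with 12952 ± 98.3 against 9215 ± 560.4 in Parental libraries.

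FEN1 and LIG1, the nuclease and the ligase that finish lagging-strand fragments, rose in every comparison with control or Parental. LIG1 had 4113, 3833 and 3732 in ZC3H7A libraries and 4147, 3847 and 3903 in ZC3H7B libraries, against 2482, 2516 and 2508 in control libraries. The rises were 0.64 ± 0.05 and 0.66 ± 0.05 (limma adjusted p = 1.44e-07 and 1.7e-07), with no overlap. LIG1 also had 2975, 3277 and 2703 in DD libraries, against 1468, 1691 and 2235 in Parental libraries (0.75 ± 0.13, limma adjusted p = 0.0012).

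The genes of nucleotide supply and uracil removal did not rise with ZC3H7A. RRM1, the large subunit of ribonucleotide reductase, fell by 0.26 ± 0.04 with ZC3H7A (5225, 4991 and 5385, against 6031, 6405 and 6266 in control libraries; limma adjusted p = 8.44e-05), while its ZC3H7B value of -0.02 did not pass. RRM2, the small subunit, and TYMS, which makes thymidylate, rose by 0.27 and 0.15 with ZC3H7B. All 3 rose in DD, by 0.75 ± 0.13 (RRM1), 0.38 (RRM2) and 0.52 (TYMS). RRM1 had 6143, 6146 and 5757 in DD libraries, against 3013, 3271 and 4595 in Parental libraries, without overlap. UNG, the glycosylase that removes uracil from DNA, had 5397, 5359 and 4859 in ZC3H7A libraries and 8088, 8026 and 7841 in ZC3H7B libraries, against 5039, 5091 and 5047 in control libraries. Only the ZC3H7B libraries stood apart (0.66 ± 0.04, limma adjusted p = 1.18e-07), and in DD UNG did not pass (0.04).

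The 4 chromatin genes had the largest median difference between ZC3H7A and ZC3H7B of the 9 roles (-0.47 in log2). UHRF1, which brings the maintenance DNA methyltransferase to newly copied DNA, had 2416, 2334 and 2190.5 in ZC3H7A libraries and 4958, 4983 and 5003 in ZC3H7B libraries, against 2576, 2519 and 2483 in control libraries. The rise with ZC3H7B, 0.98 ± 0.04, was the largest of the 41 genes in that comparison (limma adjusted p = 6.84e-09). The fall with ZC3H7A was 0.13 (limma adjusted p = 0.017), and it was lost with edgeR and DESeq2, under each other scaling and without control replicate 1 (-0.11). CHAF1A, the large subunit of the histone chaperone CAF-1, had 4607, 4622 and 4094 in ZC3H7A libraries and 6769.5, 6410.5 and 6464 in ZC3H7B libraries, against 3971, 3961 and 4041 in control libraries. It rose by 0.71 ± 0.05 with ZC3H7B, and by 0.15 with ZC3H7A, a call lost without ZC3H7A replicate 1 or replicate 2 (0.12 each). CHAF1B, the middle subunit, and SLBP, which binds the stem-loop of histone mRNAs, rose by 0.46 and 0.13 with ZC3H7B and were not called with ZC3H7A, and the SLBP call was lost without ZC3H7B replicate 2 (0.12) or control replicate 1 (0.11).

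In DD, UHRF1 had 8406, 7968 and 6783, against 3468, 4041 and 7481 in Parental libraries. As for MCM2, Parental replicate 3 stood among the DD libraries (0.70 ± 0.21, limma adjusted p = 0.026). Without that library the rise was 1.04. The UHRF1 rise was not called with edgeR (adjusted p = 0.051) or DESeq2 (adjusted p = 0.25), nor without DD replicate 1 (0.64), DD replicate 2 (0.68), Parental replicate 1 (0.48) or Parental replicate 2 (0.59). CHAF1B rose by 0.33 in DD, and the values of CHAF1A (0.15) and SLBP (0.13) did not pass.

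The regulators of S phase entry split by gene rather than by family. E2F1, an activating E2F factor, had 4587, 4369 and 4025 in ZC3H7A libraries and 4195, 4087 and 3967 in ZC3H7B libraries, against 2345, 2392 and 2363 in control libraries. Its rise of 0.87 ± 0.05 was the largest of the 41 genes with ZC3H7A (limma adjusted p = 1.87e-08), and it rose by 0.79 ± 0.05 with ZC3H7B. It also rose in DD, with 4418, 4478 and 4249 against 3342, 3429 and 3394 in Parental libraries, where the groups did not overlap (0.37 ± 0.06, limma adjusted p = 0.00087). E2F2, another activating factor, had 1607, 1531 and 1381 in ZC3H7A libraries and 2369, 2318 and 2099 in ZC3H7B libraries, against 1426, 1485 and 1367 in control libraries. It rose with ZC3H7B (0.66 ± 0.06, limma adjusted p = 2.43e-06), and neither its ZC3H7A value (0.08) nor its DD value (-0.08) passed.

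The cyclin E genes differed in direction. CCNE1 had 2585, 2499 and 2433 in ZC3H7A libraries and 2163, 2178 and 2230.2 in ZC3H7B libraries, against 1726, 1698 and 1728 in control libraries. It rose without overlap by 0.54 ± 0.04 and 0.35 ± 0.04 (limma adjusted p = 1.6e-07 and 8.85e-06). CCNE2 had 205, 202 and 284 in ZC3H7A libraries and 305, 352 and 371 in ZC3H7B libraries, against 519, 503 and 536 in control libraries. The falls of 1.19 ± 0.12 with ZC3H7A and 0.60 ± 0.12 with ZC3H7B were the largest of the 41 genes in either comparison (limma adjusted p = 1.84e-06 and 0.00061). In DD CCNE2 rose by 0.53 ± 0.10, with 511, 588 and 565 against 373, 394 and 386 in Parental libraries. CLSPN, which encodes claspin, the fork protein that passes the ATR signal to CHK1, had 1851, 1969.7 and 2161 in ZC3H7A libraries and 2453, 2744 and 2889.9 in ZC3H7B libraries, against 3378, 3283 and 3401 in control libraries. It fell by 0.75 ± 0.07 and by 0.32 ± 0.07, again without overlap, and its DD value of 0.06 did not pass.

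**Figure D4:**
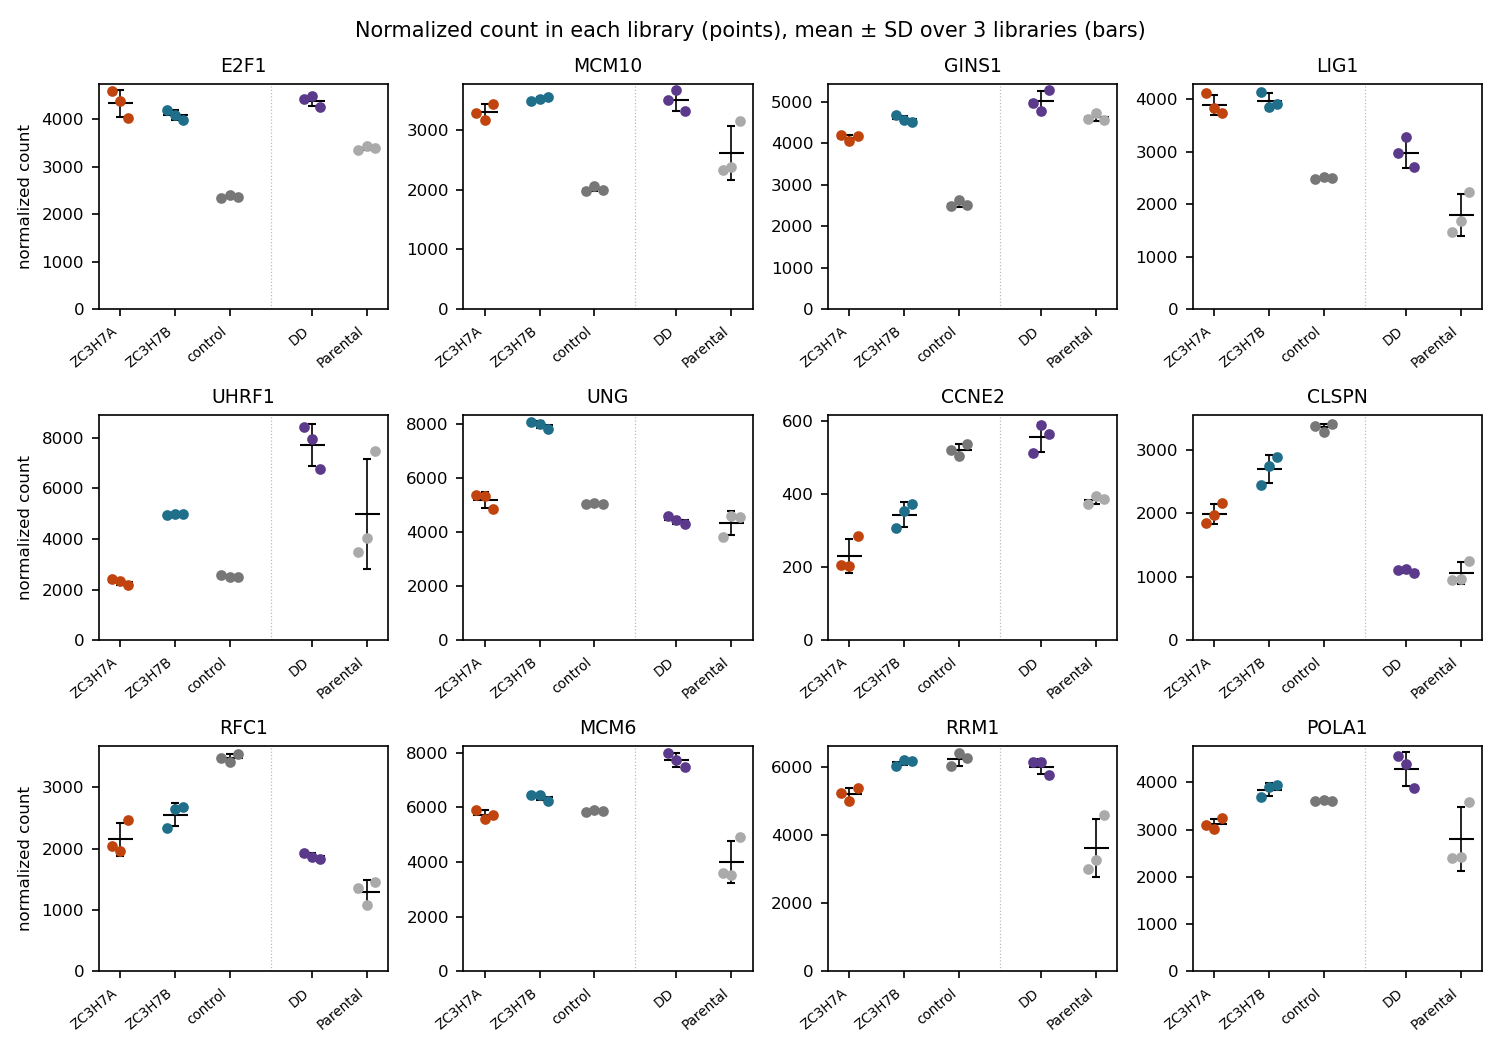
Normalized count of E2F1, MCM10, GINS1, LIG1, UHRF1, UNG, CCNE2, CLSPN, RFC1, MCM6, RRM1 and POLA1 in each library (y axis, from 0), for ZC3H7A, ZC3H7B, control, DD and Parental, with points as libraries and lines as mean ± SD of 3. Among the overexpression groups, E2F1, MCM10, GINS1 and LIG1 lie higher with each protein than in control, and CCNE2, CLSPN and RFC1 lie lower. In the same groups, UHRF1 and UNG lie higher with ZC3H7B alone.

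Set directly against each other, ZC3H7A cells had less of most of these mRNAs than ZC3H7B cells: 26 members were lower and 1 was higher, where 20.4% of all tested genes were lower and 23.9% higher, and the median was -0.22 against 0.01 for all genes. The largest differences were in UHRF1 (-1.11 ± 0.04, limma adjusted p = 4.04e-09), UNG (-0.62 ± 0.04), E2F2 (-0.59 ± 0.06), CCNE2 (-0.59 ± 0.12), CHAF1A (-0.56 ± 0.05) and PRIM1 (-0.52 ± 0.05). All 6 genes of the clamp and loader, all 4 of nucleotide supply and uracil removal and all 4 of chromatin assembly were lower with ZC3H7A. Among these the SLBP call (-0.11) was lost in 7 of the 9 fits that left out 1 library, and the RFC1 call (-0.25) without ZC3H7A replicate 1 or 2 or ZC3H7B replicate 2 or 3 (-0.22 to -0.19). FEN1 and LIG1 were called in neither direction, nor were 4 of the 6 genes of the GINS, CDC45 and MCM10 role. CCNE1 was the member called higher with ZC3H7A (0.19 ± 0.04, limma adjusted p = 0.0020), and E2F1 differed by 0.08 ± 0.05, which did not pass (adjusted p = 0.20).

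The overexpression and depletion experiments share no libraries, and they used other lines and library protocols, so their calls are set side by side without a test. Of the 21 members that rose with ZC3H7A, 13 rose in DD (61.9% of those members and 48.1% of the 27 that rose in DD), and of the 32 that rose with ZC3H7B, 21 rose in DD (65.6% and 77.8%). Among the 10 members that fell with ZC3H7A, 7 rose in DD: GMNN, DTL, POLA1, RFC1, RRM1, UHRF1 and CCNE2, with the DD rises given above. RFC1 and CCNE2 also fell with ZC3H7B. Over all 41 members the share that rose in DD was 65.9%, and the shares of 61.9%, 65.6% and 70.0% (7 of 10) among these members lie close to it, so nothing is read from them. None of the members that rose in an overexpression was called lower in DD, but only PRIM1 was called lower there, so nothing is read from this either.

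Because the series concerns codons, the members were described by the share of their codons that end in A or T. The share was taken from the coding sequence in GENCODE 29, and every member had one. It ran between 16.0% (UHRF1) and 67.9% (GMNN), with a median of 44.6%, and 27 members lay below 50% and 14 at or above it. The first 30 codons of 4 members were chosen after their values were seen, to show a rise in a gene with few such codons (E2F1), a rise in a gene with many (GINS1) and falls in genes with many (CLSPN and RFC1). They are given 5′ to 3′ with codon-final A or T in capitals.
E2F1: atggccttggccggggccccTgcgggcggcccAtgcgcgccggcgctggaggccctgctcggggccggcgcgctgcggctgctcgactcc
GINS1: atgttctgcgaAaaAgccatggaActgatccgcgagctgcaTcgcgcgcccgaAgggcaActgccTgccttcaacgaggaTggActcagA
CLSPN: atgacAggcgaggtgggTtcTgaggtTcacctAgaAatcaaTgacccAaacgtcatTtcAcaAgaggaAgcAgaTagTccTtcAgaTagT
RFC1: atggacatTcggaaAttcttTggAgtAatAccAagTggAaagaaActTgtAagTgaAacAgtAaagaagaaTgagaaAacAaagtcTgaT
Of these 30 codons, 2 end in A or T in E2F1, 10 in GINS1, 19 in CLSPN and 21 in RFC1, and over the whole coding sequence the shares are 20.4%, 59.7%, 60.2% and 61.3%.

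With ZC3H7A, 18 of the 27 members below 50% rose and 1, UHRF1, fell, while 3 of the 14 at or above 50% rose (MCM10, GINS1 and RFC3) and 9 fell. Over all tested genes with a coding sequence, 55.7% rose and 23.9% fell below 50%, and 12.2% rose and 70.6% fell at or above it. With ZC3H7B, 27 of 27 members below 50% rose, and 5 of 14 at or above 50% rose and 3 fell, where 50.0% of all genes rose and 22.8% fell below 50%, and 13.8% rose and 64.2% fell at or above it. In DD, 18 of 27 members below 50% rose and 0 fell, and 9 of 14 at or above it rose and 1 fell, where the shares of all genes were 18.7% and 18.1% below 50% and 20.3% and 11.9% at or above it. As a description across the 41 genes, which share their libraries, Spearman's rho between the share and the log2 fold change was -0.55 with ZC3H7A, -0.69 with ZC3H7B and -0.00 in DD. Over all tested genes with a coding sequence, rho was -0.52, -0.46 and 0.04 in the same order.

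**Figure D5:**
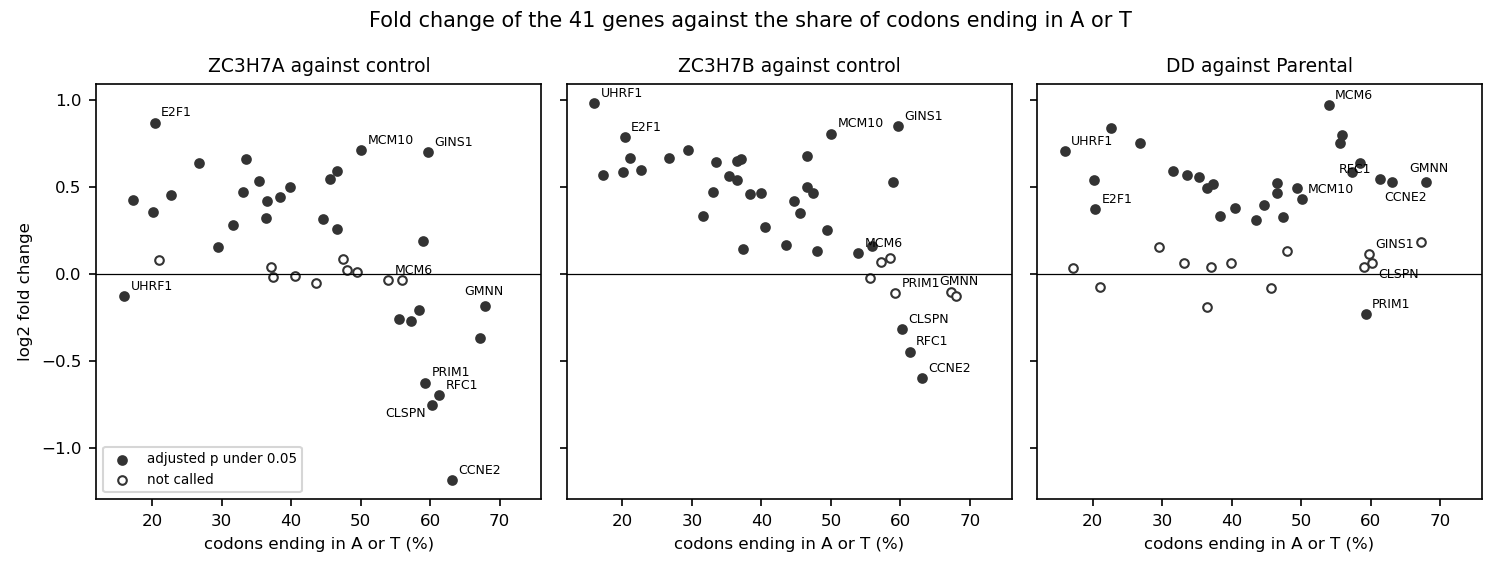
Log2 fold change of the 41 genes (y axis) against the percentage of codons ending in A or T (x axis), for ZC3H7A against control, ZC3H7B against control and DD against Parental, with filled points for an adjusted p under 0.05. With ZC3H7A and ZC3H7B the falls of CCNE2, CLSPN and RFC1 lie above 60% on the x axis, GINS1 stands above its neighbours at 59.7%, and in DD the points show no slope.

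When the trend of fold change with this share over all genes was removed, the members called lower with ZC3H7A came to 4 in place of 10 and those called higher to 30 in place of 21. With ZC3H7B, 0 were lower in place of 3 and 39 higher in place of 32. Over the genes with a coding sequence, removing the trend moved the median from -0.0023 to 0.13 with ZC3H7A and from -0.0011 to 0.10 with ZC3H7B. The members' medians in this fit were 0.26 and 0.49. Of all calls in this fit, which holds only genes with a coding sequence, 63.2% were higher with ZC3H7A and 61.8% with ZC3H7B. With the trend kept, 5318 of the same genes were higher and 5207 lower with ZC3H7A, and 4911 and 4831 with ZC3H7B. Over all tested genes with the trend kept, 45.7% and 45.9% of the calls were higher. The gain in members called higher thus came with a shift upward of the genes with a coding sequence. With ZC3H7A, CCNE2 (-0.48, limma adjusted p = 2.46e-06), CLSPN (-0.18) and UHRF1 (-0.39) were still lower, E2F2 was newly so (-0.17), PRIM1 and RFC1 no longer passed, and DTL, GMNN, POLA1, RFC4 and RRM1 were called higher. In DD the counts were 27 and 1 as before.

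The promoters of the members were read from RefSeq (GRCh38.p14) as 250 bases before to 50 after the gene's start, and 37 of the 41 matched by symbol, all but MCM4, MCM5, GINS4 and CCNE2. The windows were searched on both strands for the E2F-type words TTTCCCGC, TTTGGCGC, TTTCGCGC, TTTGCCGC, TTCCCGCC and TTGGCGCC, some of which overlap each other. At least 1 word was in 26 of the 37 windows (70.3%), and in 2199 of all 35116 windows of the promoter reference (6.26%). The reference windows were not limited to tested or coding genes, nor to 1 window per gene, so the shares are not like for like. CCAAT was in 22 windows (59.5%, against 34.6% of all), and TTTGAA, part of the element of genes that peak later in the cycle, in 1 (against 15.2% of all). The 4 windows printed belong to the members whose smaller rise of the ZC3H7A and ZC3H7B comparisons was largest, with the words in capitals.
E2F1, chr20:33686336-33686635, minus strand: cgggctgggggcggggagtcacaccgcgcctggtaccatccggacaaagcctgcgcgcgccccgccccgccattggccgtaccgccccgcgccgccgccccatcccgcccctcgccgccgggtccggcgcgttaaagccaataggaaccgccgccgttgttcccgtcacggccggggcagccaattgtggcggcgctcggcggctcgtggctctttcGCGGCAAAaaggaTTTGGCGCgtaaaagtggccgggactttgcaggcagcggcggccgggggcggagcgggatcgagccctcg
MCM10, chr10:13161308-13161607, plus strand: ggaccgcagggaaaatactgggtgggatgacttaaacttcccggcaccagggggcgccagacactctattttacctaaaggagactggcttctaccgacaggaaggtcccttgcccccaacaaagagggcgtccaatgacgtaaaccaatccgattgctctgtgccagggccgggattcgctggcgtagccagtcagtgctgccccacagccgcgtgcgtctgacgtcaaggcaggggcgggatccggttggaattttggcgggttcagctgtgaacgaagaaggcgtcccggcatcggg
GINS1, chr20:25407423-25407722, plus strand: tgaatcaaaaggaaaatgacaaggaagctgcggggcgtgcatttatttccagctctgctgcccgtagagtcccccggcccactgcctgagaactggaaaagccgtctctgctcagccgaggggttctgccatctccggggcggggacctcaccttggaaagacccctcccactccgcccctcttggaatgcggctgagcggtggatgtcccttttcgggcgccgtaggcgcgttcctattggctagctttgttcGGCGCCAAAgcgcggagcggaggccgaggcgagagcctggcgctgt
GINS2, chr16:85688905-85689204, minus strand: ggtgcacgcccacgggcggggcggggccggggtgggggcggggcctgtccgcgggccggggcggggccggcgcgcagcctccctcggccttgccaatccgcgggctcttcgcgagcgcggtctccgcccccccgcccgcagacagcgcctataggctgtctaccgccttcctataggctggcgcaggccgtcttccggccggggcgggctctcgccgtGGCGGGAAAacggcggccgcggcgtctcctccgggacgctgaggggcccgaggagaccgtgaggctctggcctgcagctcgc
E2F1 holds words that begin 33 and 20 bases before the start, GINS2 holds overlapping words from 32 bases before it, and GINS1 holds them just after the start. MCM10 holds none of these words. Its window has tttggcgg, which differs from TTTGGCGC in the last base, but only exact words were counted.

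The calls were also counted by whether a word was present. With ZC3H7A, 13 of 26 with a word rose and 7 fell, and 5 of 11 without one rose and 2 fell. With ZC3H7B, 20 of 26 with a word rose and 1 fell, and 9 of 11 without one rose and 1 fell. In DD 16 of 26 rose and 1 fell, and 8 of 11 rose and 0 fell. These counts do not separate the members that rose from those that fell.

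Of the rest of the pathway, 88 genes in 6 lists, 28 rose and 45 fell with ZC3H7A (31.8% and 51.1%, beside 34.7% and 41.2% of all genes), 33 rose and 36 fell with ZC3H7B (37.5% and 40.9%, beside 32.0% and 37.6%), and 31 rose and 8 fell in DD (35.2% and 9.09%, beside 14.7% and 14.8%). Among 22 other licensing and firing genes, 6 rose and 13 fell with ZC3H7A, 5 rose and 10 fell with ZC3H7B, and 12 rose and 1 fell in DD. RECQL4, a helicase needed to start replication, rose in all 3 (1.25, 0.49 and 0.76), and ORC5, an origin recognition subunit, fell by 0.99 with ZC3H7A and rose by 0.66 in DD. Among 23 other polymerase and fork genes, 11 rose and 9 fell with ZC3H7A, 14 rose and 6 fell with ZC3H7B, and 7 rose and 3 fell in DD. RNASEH2A, of the nuclease that removes ribonucleotides from DNA, rose by 1.04 with ZC3H7A and 1.18 with ZC3H7B. RPA2, of the complex that coats single-stranded DNA, fell by 0.61 with ZC3H7A and rose by 0.73 with ZC3H7B, a direct difference of -1.33 (limma adjusted p = 6.77e-10). POLE3 and TIMELESS, fork-associated genes, fell in DD by 1.31 and 0.67.

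Of 9 other nucleotide supply genes, 3 rose and 5 fell with ZC3H7A, 4 rose and 3 fell with ZC3H7B, and 3 rose and 2 fell in DD. The shares of all genes given above apply to this list and to those that follow. TK1, thymidine kinase, rose by 0.88 with ZC3H7A, 1.07 with ZC3H7B and 0.45 in DD. Of 16 other E2F and RB family genes, 4 rose and 6 fell with ZC3H7A, 5 rose and 5 fell with ZC3H7B, and 4 rose and 1 fell in DD. RB1, the repressor of E2F factors, fell by 1.18 with ZC3H7A and 0.59 with ZC3H7B and rose by 0.76 in DD, the ZC3H7B value turning to 0.11 with the codon trend removed, and MYBL2, itself an E2F target, rose by 0.91 and 1.24. Of 8 other genes of histone supply and maintenance methylation, 2 rose and 5 fell with ZC3H7A, 2 rose and 6 fell with ZC3H7B, and 2 rose and 0 fell in DD. There DNMT1, the methyltransferase that UHRF1 brings to DNA, rose by 0.70 and 0.85, and HELLS, a chromatin remodeller, fell by 1.34 and 0.78. Of 10 replication checkpoint genes, 2 rose and 7 fell with ZC3H7A, 3 rose and 6 fell with ZC3H7B, and 3 rose and 1 fell in DD, with ATR, the kinase that senses stalled forks, lower in each (-1.25, -0.90 and -0.32; the DD call was lost without DD replicate 1, at -0.31, or DD replicate 2, at -0.30).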

How the data were processed

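Poly(A) RNA was sequenced from 15 HEK293-derived libraries, 3 in each of 5 groups. The submitters' processing notes name the hg19 genome, DESeq2, HTSeq and STAR 2.7.10b; tool settings, annotation and counting strand are not given in the sources used here. The deposited values are a signal, read counts that the authors divided by a size factor per library: 100% were whole multiples of what 1 read is worth, to within 0.01 reads, so whole reads were recovered for the count tests edgeR 4.0.16 and DESeq2 1.42.0.

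Values were tested with limma 3.58.1 in R 4.3.3 on log2(value + 1), with a mean-variance trend, for genes that reached 10 in 3 or more libraries. The 9 overexpression libraries shared a fit, and the 6 depletion libraries were fitted apart, since another protocol made them. P-values are two-sided and adjusted by Benjamini-Hochberg over all genes tested. Fits were tested on simulated counts with the same spread for every gene and no outlying library. That test does not cover the wider spread between Parental libraries.

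The members and lists were chosen with earlier results of these data known, so their counts are descriptions. Any of the 41 members could be named. Values in every library are given for the 6 largest called changes each way in a comparison, for members called in opposite directions in overexpression and DD, and for some others chosen after their values were seen; up to 4 genes of each other list could be named. GENCODE 29 (GRCh38) gave coding sequences, transcript lengths and overlaps, and no coordinates. Some genes that this rule selects are left out of the text.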

Additional observations from a re-analysis of the deposited data

How the results depend on the processing

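Calls were recomputed with other scalings, filters and pseudocounts, with count models, with each library left out, with only the 6 libraries compared, with a replicate block and with the trend by codon-final A or T removed. Of the gene results of members, 3254 stayed called in the same direction or stayed uncalled, 88 lost a call and 70 gained one. A further 32 changed sign with a call in the main fit, the other fit or both. Sign changes without a call in either fit were counted as unchanged. With the trend removed, with or without the block, members lower numbered 4 for ZC3H7A and 0 for ZC3H7B. That fit holds only the 13055 genes with a coding sequence. Genes lower in it numbered 3792 for ZC3H7A (3843 with the block), beside 5207 of the same genes and 7277 of all genes with the trend kept, and 3776 for ZC3H7B (3844 with the block), beside 4831 and 6647. With ZC3H7A, the signs that turned there with a call in either fit were CDC6 0.38, CHAF1A -0.0036, DTL 0.19, E2F2 -0.17 and GMNN 0.75. MCM6 0.31, POLA1 0.29, RFC4 0.53 and RRM1 0.14 turned too. With ZC3H7B they were CLSPN 0.15, GMNN 0.62, PRIM1 0.33, RB1 0.11, RFC1 0.065, RFC4 0.62 and RRM1 0.30. Between the proteins, GMNN turned to 0.12 with the block. The cause of each change was not tested. Upper-quartile scaling moved the median of all genes by 0.13 in both overexpressions, gave RRM1 0.11 with ZC3H7B, and put 57.9% of ZC3H7B calls higher, in place of 45.9%.

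With 1 library left out, members higher and lower numbered 20 to 24 and 9 to 10 with ZC3H7A, 31 to 33 and 3 to 6 with ZC3H7B, 1 to 2 and 24 to 28 for ZC3H7A against ZC3H7B, and 19 to 29 and 0 to 1 in DD, the lowest of these without DD replicate 1 and the highest without Parental replicate 3. All genes higher in DD then numbered between 1561 and 3564, in place of 2716. With only the 6 libraries compared, 6 members were lower with ZC3H7B. No member was lower in DD with DESeq2, with no filter or with the block, and 2 were higher for ZC3H7A against ZC3H7B with the trend removed and the block. The deviations of same-numbered libraries correlated at r = -0.02, -0.04 and -0.27 in DD and Parental, at 0.51, 0.07 and 0.70 between ZC3H7A and ZC3H7B, at -0.15, 0.10 and -0.01 between ZC3H7A and control, and at -0.07, 0.12 and -0.01 between ZC3H7B and control. The correlations were not above 0.1 in every pair of any of these, so the numbers were not taken to pair the samples; the replicate block gave 21 and 10 members higher and lower with ZC3H7A, 32 and 4 with ZC3H7B, 1 and 27 between the proteins, and 27 and 0 in DD. At 12.2 M reads or more, counting error is small for these genes, and the spread between Parental libraries, with a median coefficient of variation of 9.10% over the members, limits the DD comparison more.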

Other observations

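Genes of the later cell cycle and the histone genes were set beside the replication genes. Of 27 genes of G2 and mitosis, 12 rose and 12 fell with ZC3H7A (44.4% each, beside 34.7% and 41.2% of all genes), 13 rose and 9 fell with ZC3H7B (48.1% and 33.3%, beside 32.0% and 37.6%), and 14 rose and 0 fell in DD (51.9% and 0.0%, beside 14.7% and 14.8%). AURKA and AURKB, mitotic kinases, rose by 0.77 and 0.85 with ZC3H7A and by 0.82 and 0.65 with ZC3H7B, whereas HMMR fell by 1.83 with ZC3H7A. Values of the 27 genes ran between -2.37 and 0.85 with ZC3H7A and between -1.78 and 0.82 with ZC3H7B. ANLN, a cytokinesis scaffold, and NDC80, a kinetochore protein, rose by 0.63 and 0.71 in DD. Of 89 replication-dependent histone genes in the table, 29 passed the filter on low values in the overexpression experiment, of which 2 rose and 24 fell with ZC3H7A (6.90% and 82.8%) and 2 rose and 23 fell with ZC3H7B (6.90% and 79.3%). In the depletion experiment 64 passed, of which 5 rose and 23 fell in DD (7.81% and 35.9%), beside the same shares of all genes as above. Most mRNAs of these histones lack a poly(A) tail, and the libraries were made from poly(A) RNA, so these counts describe only what that selection kept.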
